A study of Mus musculus musculus x Mus musculus castaneus with 12 samples.

Results

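Male F1 hybrid mouse ES cells in which the promoter region of *Kdm6a* had been deleted were compared with wt cells of the same cross by RNA-seq. The samples taken were every promoter-deletion clone of the series, clone ΔP4 of the BC cross (BL6 mother, *cast* father) and clone ΔP2.1 of the reciprocal CB cross, with the male wt samples of each cross, so 6 of the 12 samples. The 4 exonic-deletion clones, ΔE1 and ΔE3 of BC and ΔE2.5 and ΔE2.7 of CB, were used only to see how far they followed, and the 2 female BC wt samples were not used. All cells were grown in serum and LIF on feeder cells, which were depleted on gelatin before RNA was taken, and the clones, unlike wt, had been transfected with CRISPR/Cas9 and a puromycin resistance plasmid, selected with puromycin and cloned by dilution.

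Each cross thus gave 2 male wt samples and 1 male promoter KO sample. The promoter deletion is known from a single clone per cross, and the difference between clone and cross cannot be told apart. The wt CB line carries an actin-GFP transgene that the BC line lacks. ΔE1 and ΔE3 trace back to the same editing event, and both carry an off-target deletion of *Sh3kbp1*, *Map3k15* and *Pdha1*. The wt samples are biological replicates by the study's account, but no source used here ties them to separate cultures. The p-values thus rest on a spread between wt samples that may be technical. Fits of several KO clones with cross as covariate also take in the spread between those clones.

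KDM6A (UTX) removes methyl groups from lysine 27 of histone H3, the mark placed by the Polycomb complex PRC2, and it is a subunit of the KMT2C and KMT2D complexes that methylate lysine 4 of histone H3 at enhancers. *Kdm6a* escapes X inactivation and has a Y-linked homologue, *Uty*, whose protein has little demethylase activity. In ES cells the gene is not needed for self-renewal, and it is best known for its part in the activation of developmental genes, mesoderm and heart genes among them, when the cells differentiate.

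The guides are shown because they set what each kind of clone has lost. Each is given 5′ to 3′ with the guide in lower case and the PAM in capitals. In the mm10 (GRCm38) genome the ΔP guides lie at chrX:18160528-18160547 and chrX:18164295-18164314, and the ΔE guides at chrX:18163390-18163409 and chrX:18208733-18208752.
ΔP Left: ggacactgcatgtttgatggAGG
ΔP Right: agctacatactccaaaggagAGG
ΔE Left: gaaacctcacgaacccgaaaAGG
ΔE Right: tagcattatctgcataccagAGG
*Kdm6a* occupies chrX:18162575-18279936 on the plus strand. The left ΔP guide lies upstream of the first exon and the right one in an intron, and the interval from the outer end of one to that of the other spans 3787 bp. It starts 2047 bp upstream of the gene and takes in exons 1 and 2 of the 29 exons of the longest coding transcript, with 231 of its 4272 coding bases, and 5 of the 10 annotated *Kdm6a* transcripts start inside it. No other gene of the count tables overlaps it. The ΔE guides lie in exons 2 and 4, enclose exon 3 and leave every annotated transcript start in place.

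*Kdm6a* was all but absent from both promoter clones. It stood at 114 and 117 TMM-scaled CPM (reads scaled to a library of fixed size) in the BC wt samples and at 0.0937 CPM, from 8 reads, in ΔP4. In CB it stood at 109 and 112 CPM in wt and at 0.0818 CPM, from 4 reads, in ΔP2.1. These levels are 0.0811% (95% exact Poisson interval 0.0350% to 0.160%, counting error alone) and 0.0742% (0.0202% to 0.190%) of the wt mean of the cross. No read with a maternal SNP was left in either clone, against 901 and 1124 in BC wt and 570 and 572 in CB wt. Against a floor of 3 reads per library, the maternal signal was at least 357-fold lower in ΔP4 and at least 179-fold lower in ΔP2.1. In the exonic clones, whose remaining exons still add reads, the level was 26.4 CPM in ΔE1, 30.5 CPM in ΔE3, 4.61 CPM in ΔE2.5 and 16.5 CPM in ΔE2.7. All 6 clones lay below every wt sample, and both promoter clones lay below all 4 exonic ones. *Kdm6a* fell by 10.28 on the log2 scale in promoter KO against wt (SE 0.13, adjusted p = 3.99e-06, edgeR quasi-likelihood test, Benjamini-Hochberg adjusted over all genes). It was also lower in promoter than in exonic KO, with a log2 fold change of -7.73 (SE 0.81, adjusted p = 0.0332, edgeR). That call was lost on leaving out any wt sample, ΔP2.1, ΔE3 or ΔE2.7, and with ΔE1 and ΔE3 averaged.

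**Figure D1:**
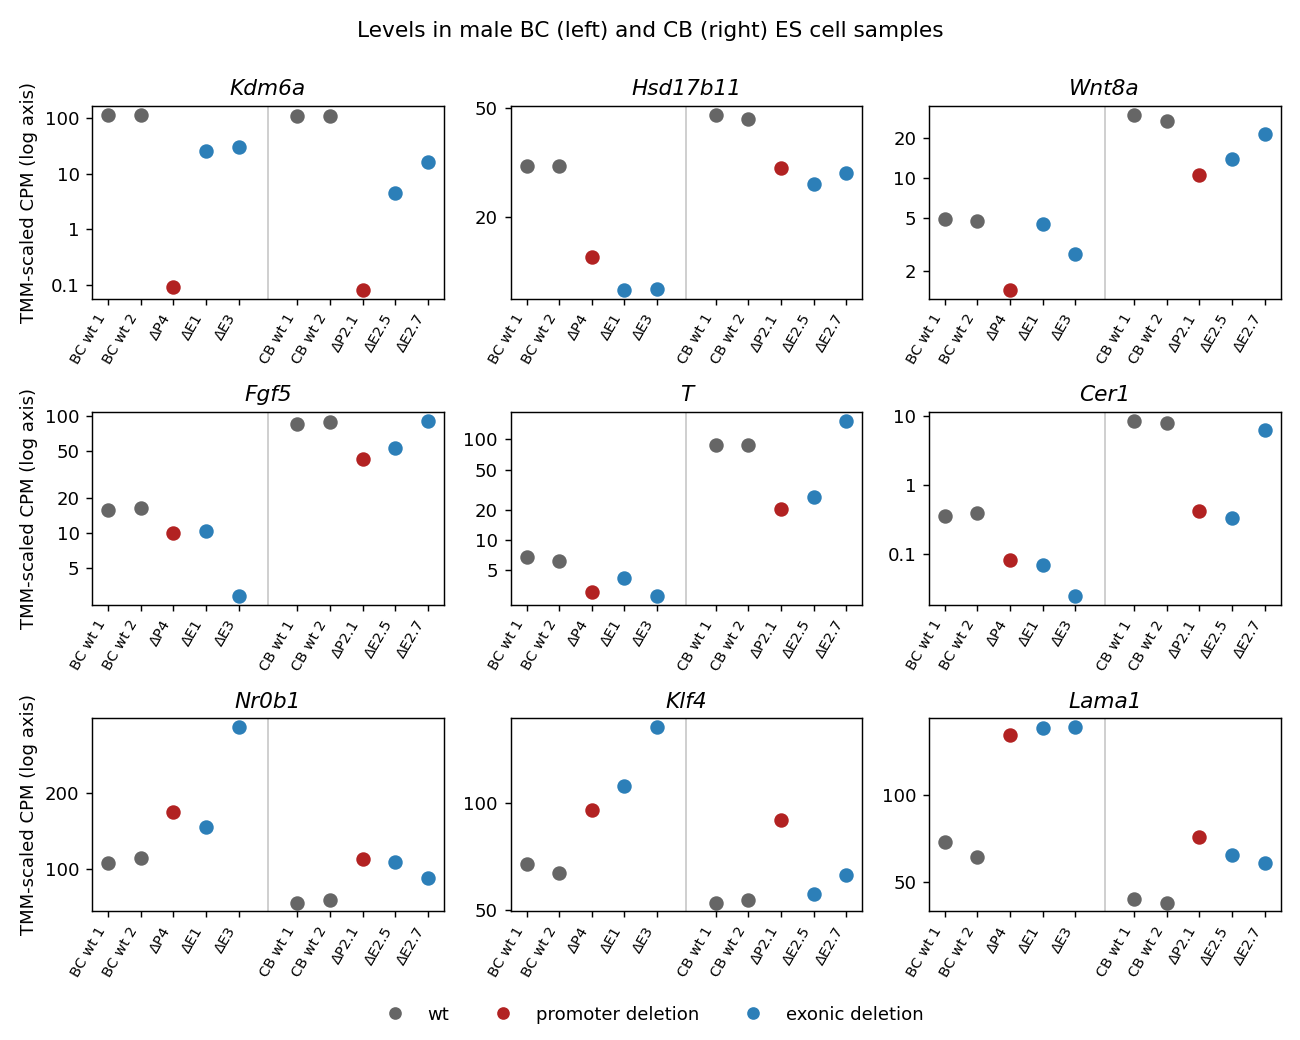
Level of *Kdm6a* and of 8 genes described in the text, as TMM-scaled CPM on a log axis, 1 point per male sample, with BC samples left and CB samples right of the line in each panel. *Kdm6a* is lowest in ΔP4 and ΔP2.1, and the other 8 genes lie on the same side of wt in both promoter clones, while the exonic clones follow for some genes and not for others.

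The genes around the deletion and the relatives of *Kdm6a* gave no call by edgeR. Of the 6 other genes of the tables within 1 Mb of *Kdm6a*, 2 were expressed enough to be tested. Each of the 2 lay below both wt samples of its cross in both clones, as did 13.7% of all genes tested. *Fundc1*, a receptor for the removal of mitochondria, stood at 18.9 CPM in ΔP4 against 19.1 and 21.2 in BC wt, and at 19.3 CPM in ΔP2.1 against 20.8 and 20.4 in CB wt. The second, *Efhc2*, which encodes a protein of the ciliary axoneme, stood at 1.72 CPM in ΔP4 against 1.77 and 2.05 and at 0.102 CPM in ΔP2.1 against 0.249 and 0.424 (log2 fold change -0.53, adjusted p = 0.731, edgeR). The autosomal homologue *Kdm6b* had one of -0.11 (adjusted p = 0.815, edgeR). *Uty* stood at 44.2 CPM in ΔP4 against 18.6 and 19.4 in BC wt, but at 36.6 CPM in ΔP2.1 against 40.1 and 39.3 in CB wt. The sum of the 3 tested Y-linked genes went from 39.8 and 39.9 CPM in BC wt to 77.6 in ΔP4, and was 120 and 123 CPM in CB wt and 116 in ΔP2.1. Of these, *Ddx3y*, an RNA helicase, was above both wt samples in both clones (31.9 CPM in ΔP4 against 20.4 and 19.4, and 75.6 CPM in ΔP2.1 against 49.6 and 53), and *Eif2s3y*, a translation initiation factor subunit, was at 1.55 CPM in ΔP4 against 0.902 and 1.12 but at 3.76 CPM in ΔP2.1 against 30.7 and 31.1. *Uty* and *Ddx3y* were at 4 and 3.58 CPM in ΔE3, below both wt samples of the cross. Among the X-linked partners of Y genes, *Eif2s3x*, a translation initiation factor subunit, had a log2 fold change of -0.34 (adjusted p = 0.846, edgeR), and its BC wt samples stood at 68.3 and 32.3 CPM.

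The partners and the antagonists of KDM6A gave no edgeR call either. Over all genes tested, 13.7% lay below and 12.2% above both wt samples of their cross in both clones, and 51.6% on opposite sides. In the KMT2C/D complex, 0 of 9 genes lay below both wt samples of their cross in both clones, 6 were on opposite sides and 1 lay above, *Ash2l*, a core subunit (log2 fold change 0.34, adjusted p = 0.462, edgeR), while *Kmt2d*, the methyltransferase, was at -0.15 (adjusted p = 0.814, edgeR). Of 11 PRC2 genes, 4 lay above wt in both clones, 1 below and 5 on opposite sides, at a median log2 fold change of 0.10. These include *Ezh2*, the methyltransferase, and *Mtf2* and *Aebp2*, accessory subunits at 0.17 and 0.18. None of the 6 acetyltransferase and SWI/SNF genes lay on the same side in both clones, and 5 lay on opposite sides. *Ep300* and *Smarcb1* were at 0.05 and 0.06 on the log2 scale.

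The libraries were those of ES cells. Total counts were 80880720 and 83497935 reads in BC wt and 82393640 in ΔP4, and 51457763 and 51384489 in CB wt and 50146116 in ΔP2.1, so depth differed between crosses and little within them. The summed level of 8 ES cell markers was 4992 and 4535 CPM in BC wt and 4369 in ΔP4, and 3276 and 3259 CPM in CB wt and 3908 in ΔP2.1, with *Pou5f1*, the central pluripotency factor, giving the largest part of the sum. The median absolute log2 difference between the wt samples was 0.0966 in BC and 0.0435 in CB. It was 0.223 and 0.214 between ΔP4 and the BC wt samples and 0.186 and 0.187 between ΔP2.1 and the CB wt samples, so each clone was more than its wt pair's spread away. In these bulk samples, fewer cells of a type and less RNA per cell cannot be told apart.

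No autosome stood apart in the promoter clones, nor did the X chromosome. Over the 19 autosomes and the X chromosome, the median log2 difference from wt in ΔP4 ranged from -0.03 on chromosome 2 to 0.05 on chromosome 12, and in ΔP2.1 from -0.08 on chromosome 1 to 0.03 on chromosome 15. The Y chromosome, with 4 tested genes (the 3 above and *Uba1y*), had a median of 0.56 in ΔP4 and -0.18 in ΔP2.1. In the exonic clones, the chromosome 8 median was -0.44 in ΔE1 and -0.49 in ΔE3, and the chromosome 1 median was 0.46 in ΔE2.5 and 0.40 in ΔE2.7. Genes on those chromosomes therefore differ in the exonic clones in a way not seen in the promoter clones.

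**Figure D2:**
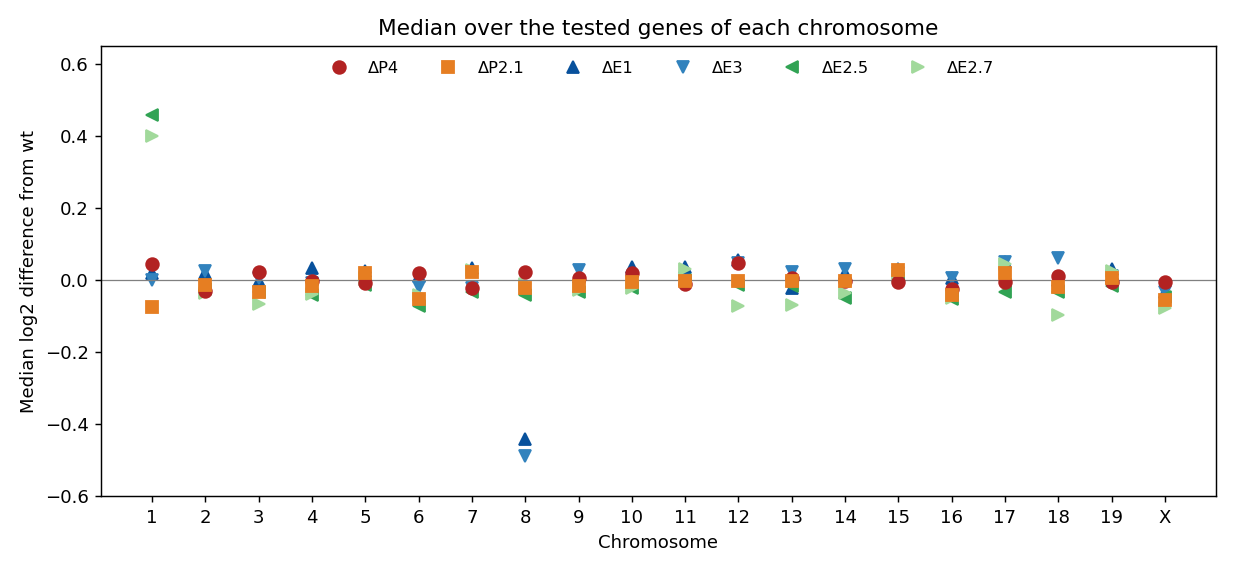
Median log2 difference from the wt samples of the cross over the tested genes of each chromosome, 1 symbol per clone. ΔP4 and ΔP2.1 stay between -0.08 and 0.05 on all chromosomes drawn, while ΔE1 and ΔE3 are low on chromosome 8 and ΔE2.5 and ΔE2.7 high on chromosome 1.

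Feeder cells were checked through 11 tested fibroblast markers. Their sum was 111 and 107 CPM in BC wt and 86.4 in ΔP4, and 1160 and 1129 CPM in CB wt and 1231 in ΔP2.1, carried by *Tagln*, an actin-binding protein, at 985 and 963 CPM in CB wt and 940 in ΔP2.1. Of these markers 4 lay below wt in both clones, against 13.7% of all genes tested. *Col1a2*, a collagen chain, stood at 1.69 CPM in ΔP4 against 5.78 and 5.22, and at 2.84 CPM in ΔP2.1 against 5.45 and 5.36. The other 3 were *S100a4*, *Thy1* and *Dcn*, and 2 markers, *Lum* and *Prrx1*, were too low to be tested. *Col1a1* and *Col3a1*, 2 further collagens, were lower in ΔP4 (log2 difference -1.08 and -0.96) and higher in ΔP2.1 (0.98 and 0.84). The part of feeder or fibroblast-like cells in the results below was not tested.

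Across all genes, *Kdm6a* was the only one called by edgeR. Of 14114 genes tested with cross as covariate, edgeR called 1 lower (0.00709%) and 0 higher (0.0%) with thresholds of 0.05 for the adjusted p and 1.5-fold for the change. An unadjusted p under 0.05 was found for 1409 genes (9.98%), and DESeq2 called 105 lower and 63 higher. With ΔP4 left out, the edgeR fit called 895 lower and 449 higher, and with ΔP2.1 left out 664 and 1143. In these fits the promoter arm is 1 sample, and its spread is taken from the wt pairs, which may be technical.

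These genes were mostly not the same ones, and more lay on opposite sides than on the same side. By a change of at least 1.5-fold outside both wt samples of the cross, ΔP4 had 865 genes lower (6.13%) and 1294 higher (9.17%), and ΔP2.1 had 1144 lower (8.11%) and 678 higher (4.8%). By range alone, 42.4% of all genes lay below and 43.0% above both wt samples in ΔP4, and 46.7% and 43.8% in ΔP2.1. With the 1.5-fold threshold, 107 genes (0.758%) were lower in both clones and 79 (0.56%) higher. Of these, 19 and 22 were under 1 CPM in both clones and in the wt mean of both crosses, 101 and 66 had an unadjusted edgeR p under 0.05, and among genes above 5 TPM in at least 1 sample the counts were 49 and 24. As testing needed a single sample above 1 TPM, 39 of the 107 passed through wt samples alone and 27 of the 79 through a promoter clone alone, where they had to be high. That leaves 68 lower and 52 higher genes above 1 TPM in both arms, a split made after the values were seen. On opposite sides were 162 genes lower in ΔP4 and higher in ΔP2.1 and 366 higher in ΔP4 and lower in ΔP2.1, together 528 (3.74%). Of the genes lower in ΔP4, 12.4% were lower and 18.7% higher in ΔP2.1, and of those higher in ΔP4, 6.11% were higher and 28.3% lower in ΔP2.1. Over 13054 genes with a mean above 1 CPM, Pearson's r between the log2 differences of the clones was -0.26 and Spearman's rho -0.36. The clones share no control sample, but the genes of a library are not independent, so no p is given.

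**Figure D3:**
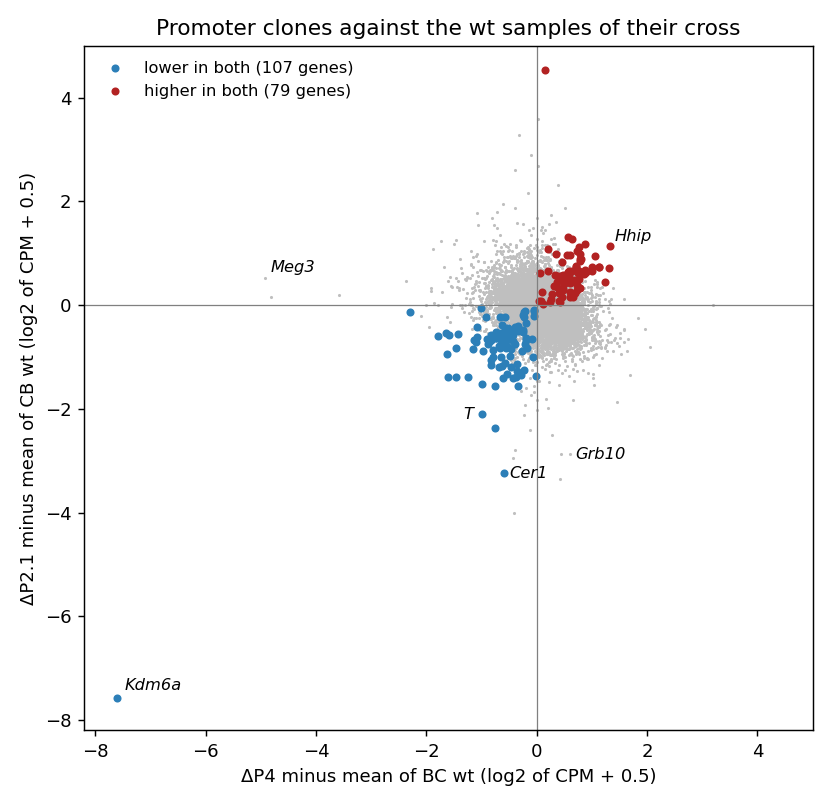
Log2 difference of ΔP4 from the mean of BC wt (x axis) against that of ΔP2.1 from the mean of CB wt (y axis), both on log2(CPM + 0.5), 1 point per tested gene. The 107 genes lower in both clones are blue and the 79 higher in both are red. *Kdm6a* lies alone at the lower left, and *Meg3* (-4.93 in ΔP4, 0.53 in ΔP2.1) and *Grb10* (0.61 and -2.87) lie in opposite quadrants.

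The genes lower in both clones included signals and transcription factors of the epiblast and primitive streak. Besides *Kdm6a*, the 11 genes with the smallest p that met the naming rule were *Wnt8a*, *Xlr3c*, *Oasl2*, *Plekha2*, *Mb21d2*, *Foxo4*, *Car2*, *Dgka*, *Bcar3*, *Ap3b2* and *Fgf5*. edgeR called 0 of the 11 (adjusted p from 0.0961 to 0.117) and DESeq2 called all 11. *Wnt8a*, a Wnt ligand of the posterior epiblast, stood at 1.44 CPM in ΔP4 against 4.93 and 4.72 in BC wt, and at 10.5 CPM in ΔP2.1 against 29.8 and 26.8 in CB wt. Its log2 fold change was -1.57 (SE 0.13, adjusted p = 0.0961, edgeR). *Fgf5*, a marker of the epiblast after exit from naive pluripotency, stood at 10.0 CPM in ΔP4 against 15.7 and 16.4, and at 42.7 CPM in ΔP2.1 against 84.9 and 87.7. For both genes the CB wt samples were several times above BC wt, and ΔP2.1 lay below CB wt but above BC wt.

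*Oasl2*, an interferon-induced gene, was at 1.43 CPM in ΔP4 against 4.08 and 4.03, and at 1.92 CPM in ΔP2.1 against 5.74 and 5.86 (log2 fold change -1.55, SE 0.15, adjusted p = 0.0961, edgeR). *Foxo4*, an X-linked forkhead factor downstream of insulin signalling, had nearly equal levels in both crosses, 114 and 106 CPM in BC wt, 104 and 106 in CB wt, 65.9 in ΔP4 and 67.3 in ΔP2.1. *Plekha2*, a phosphoinositide-binding adaptor, was at 19.8 CPM in ΔP4 against 36.2 and 36.1 and at 50.7 CPM in ΔP2.1 against 83.2 and 81.2. *Car2* (a carbonic anhydrase), *Dgka* (a diacylglycerol kinase), *Ap3b2* (an adaptor subunit of vesicle traffic) and *Mb21d2* had log2 fold changes from -0.74 to -0.60. *Xlr3c*, of an X-linked multicopy family whose reads near-identical copies can share, was at 2.90 and 2.38 CPM in BC wt and 0.141 in ΔP4, but at 0.0383 and 0.0578 CPM in CB wt and 0 in ΔP2.1, so the gene bears on BC alone.

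In the mesendoderm and primitive streak, 7 of 12 tested genes lay below both wt samples of their cross in both clones and 0 above, against 13.7% and 12.2% of all genes tested, and 3 on opposite sides, with 51.6% of all genes on opposite sides. Their median log2 fold change was -0.86 against 0.00 for all genes, and edgeR called 0 and DESeq2 5. *T* (brachyury), the factor that marks the streak, stood at 3.03 CPM in ΔP4 against 6.80 and 6.22 in BC wt, and at 20.1 CPM in ΔP2.1 against 87.6 and 87.1 in CB wt (log2 fold change -1.62, SE 0.24, adjusted p = 0.125, edgeR). *Lhx1*, a LIM homeobox factor of the anterior streak, was at 0.141 CPM in ΔP4 against 0.534 and 0.643 and at 0.307 CPM in ΔP2.1 against 3.92 and 3.43. The other 5 were *Eomes*, *Mixl1*, *Fgf8*, *Evx1* and *Sp5*. *Lhx1* was above 1 TPM in wt samples alone, and without it 6 of 11 lay below. The sum over the list was 36.7 and 37.9 CPM in BC wt and 30.1 in ΔP4, against 262 and 267 CPM in CB wt and 108 in ΔP2.1, so the list was well expressed in CB alone. For *T* the effect in ΔP2.1 minus that in ΔP4 was -1.02 on the log2 scale (adjusted p = 0.00159, edgeR interaction test). That test sets 1 clone against 1 and assumes that each varies like the wt samples.

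The Nodal pathway patterns the streak through FOXH1 and SMAD proteins, and 5 of its 12 genes lay below wt in both clones, 0 above and 6 on opposite sides, at a median log2 fold change of -0.26. Those below included the ligand *Nodal* and its inhibitors *Lefty1*, *Lefty2* and *Cer1*. *Cer1* was at 0.0820 CPM in ΔP4 against 0.356 and 0.400, and at 0.430 CPM in ΔP2.1 against 8.63 and 7.94 (log2 fold change -3.64, SE 0.47, adjusted p = 0.120, edgeR). *Cer1* was above 1 TPM in wt samples alone, and without it 4 of 11 lay below. Over all genes tested, 13.7% lay below, 12.2% above and 51.6% on opposite sides.

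Of 9 tested Wnt targets, 3 lay below wt in both clones, 0 above and 5 on opposite sides, at a median of -0.29. Without *Dkk1*, which was above 1 TPM in wt samples alone, 2 of 8 lay below. For this list and the next, the shares over all genes were 13.7% below, 12.2% above and 51.6% on opposite sides. *Axin2*, a feedback inhibitor of the pathway, was at 4.58 CPM in ΔP4 against 7.18 and 6.67 and at 26.3 CPM in ΔP2.1 against 43.3 and 42.0, and *Sp5*, a zinc finger target, had a log2 fold change of -0.67 (SE 0.16, adjusted p = 0.267, edgeR). Of 13 tested immediate early and ERK feedback genes, 4 lay below wt in both clones (*Ier2*, *Dusp1*, *Dusp6* and *Spry4*), 0 above and 7 on opposite sides, at a median of -0.05. *Dusp6*, the phosphatase of ERK, was at 104 CPM in ΔP4 against 141 and 137, and at 120 CPM in ΔP2.1 against 192 and 191. *Spry4*, a further inhibitor, was at 158 CPM in ΔP4 against 264 and 212, and at 63.2 CPM in ΔP2.1 against 101 and 101.

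The wider formative and primed epiblast list did not go one way. Of its 13 genes, 3 lay below wt in both clones (*Fgf5*, *Wnt8a* and *Pou3f1*), 2 above (*Zic2* and *Zic5*) and 8 on opposite sides, with a median log2 difference of -0.67 in ΔP4 and 0.40 in ΔP2.1. *Foxd3*, a forkhead factor of the pluripotency exit chosen after its values were seen, was at 17.6 CPM in ΔP4 against 49.4 and 52.1, and at 59.5 CPM in ΔP2.1 against 26.3 and 26.0. In the primitive endoderm list, 5 of 11 genes lay below, 0 above and 3 on opposite sides, at a median of -0.51. For this list and the one before it, the shares over all genes were 13.7% below, 12.2% above and 51.6% on opposite sides. Of the 11, *Sox17*, *Pdgfra*, *Srgn* and *Dkk1* were above 1 TPM in wt samples alone, and without them 3 of 7 lay below. Its named members, *Dkk1* (a Wnt inhibitor) and *Gata6* (a lineage factor), were low in all samples, at most 1.23 and 3.01 CPM in wt.

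Several naive pluripotency factors were above wt in both clones. Of 18 core and naive pluripotency genes, 8 lay above wt in both clones, 0 below and 6 on opposite sides. Over all genes tested the shares were 12.2%, 13.7% and 51.6%. Above were *Klf2*, *Klf4*, *Esrrb*, *Tbx3*, *Zfp42*, *Nr0b1*, *Fgf4* and *Socs3*. The count has no fold threshold, and *Esrrb* was at 289 CPM in ΔP2.1 against 286 and 283 in CB wt. The median log2 fold change of the list was 0.30, with edgeR calling 0 and DESeq2 3. *Nr0b1* (DAX1), an X-linked nuclear receptor, stood at 168 CPM in ΔP4 against 105 and 110 in BC wt and at 109 CPM in ΔP2.1 against 73.1 and 74.8 in CB wt (log2 fold change 0.60, SE 0.07, adjusted p = 0.0985, edgeR). *Klf4*, a factor downstream of LIF and STAT3, was at 95.6 CPM in ΔP4 against 67.6 and 63.4 and at 89.5 CPM in ΔP2.1 against 52.6 and 53.5. *Zfp42* (REX1) was at 263 CPM in ΔP4 against 202 and 193 and at 261 CPM in ΔP2.1 against 129 and 130. Other members went apart. *Nanog* was above wt in ΔP4 and below in ΔP2.1 (log2 difference 0.69 and -0.37), and *Pou5f1* the reverse (-0.45 and 0.18).

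The 12 named genes higher in both clones were *Nr0b1* and *Klf4* along with *Col11a1*, *Stat4*, *Hhip*, *Spp1*, *Gpa33*, *Klhl13*, *Stard8*, *Ddx3y*, *Akap8l* and *Prps1*. edgeR called 0 of the 12 (adjusted p from 0.0961 to 0.120), and DESeq2 called 10, all but *Akap8l* and *Prps1*, whose change was under 1.5-fold. *Hhip*, an inhibitor that binds Hedgehog ligands, had the largest log2 fold change, 1.42 (SE 0.14, adjusted p = 0.0961, edgeR). It stood at 16.1 CPM in ΔP4 against 6.61 and 5.74, and at 2.97 CPM in ΔP2.1 against 0.995 and 1.16. *Spp1* (osteopontin), a secreted matrix protein, was at 409 CPM in ΔP4 against 185 and 190 and at 224 CPM in ΔP2.1 against 133 and 136. *Stat4*, a transcription factor of cytokine signalling, was at 46.4 CPM in ΔP4 against 25.1 and 27.4 and at 17.7 CPM in ΔP2.1 against 9.39 and 9.35. *Col11a1*, a fibrillar collagen chain, was at 5.6 CPM in ΔP4 against 3.01 and 3.03 but at 59.4 CPM in ΔP2.1 against 30.2 and 29.5, so the ratio was alike at levels far apart. *Klhl13*, a ubiquitin ligase adaptor on the X chromosome, was at 1200.5 CPM in ΔP4 against 528 and 568 and at 1832.5 CPM in ΔP2.1 against 1095.9 and 1105.6.

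The basement membrane list held *Lama1*, the alpha chain of the laminin of the early embryo, at 162 CPM in ΔP4 against 68.6 and 60.9 and at 71.3 CPM in ΔP2.1 against 43.6 and 42.4 (log2 fold change 1.04, SE 0.14, adjusted p = 0.124, edgeR). *Lama5*, another alpha chain, went the other way, at -0.23, and the list counted 2 of 9 above, 2 below and 4 on opposite sides. Germline genes counted 6 of 13 above wt in both clones, 0 below and 3 on opposite sides, at a median of 0.39. Over all genes, 12.2% lay above, 13.7% below and 51.6% on opposite sides. In the germline list, *Ddx4* (VASA), a germ cell helicase, was at 0.39 (SE 0.10, adjusted p = 0.291, edgeR). *Rpl10l*, a testis ribosomal protein with near-identical copies, was at 0.53. Targets of ATF4, the factor of the amino acid and stress response, did not go one way. They counted 5 of 12 above, 0 below and 6 on opposite sides, with a median log2 difference of 0.40 in ΔP4 and -0.05 in ΔP2.1, and their sum was 2753 CPM in ΔP4 against 2128 and 2193 but 1254 CPM in ΔP2.1 against 1297 and 1292. As an example, the stress factor *Ddit3* stood at 25.2 CPM in ΔP4 against 10.2 and 9.56 but at 7.92 CPM in ΔP2.1 against 7.61 and 7.33, and *Sesn2*, another target, had a log2 fold change of 0.23.

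**Figure D4:**
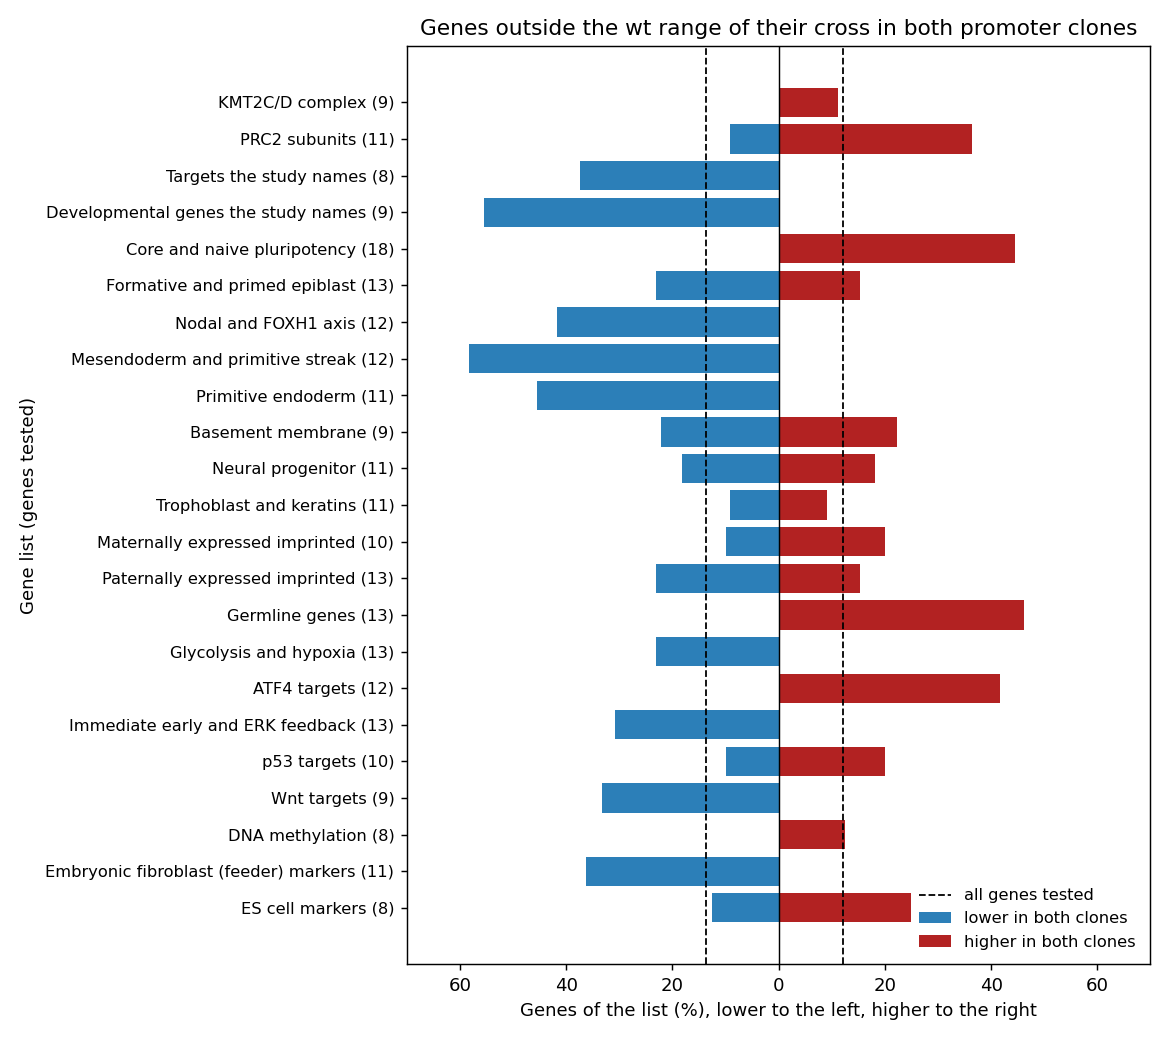
Share of the tested genes of each list that lay below (left, blue) or above (right, red) both wt samples of their cross in both promoter clones, for lists with at least 8 tested genes, whose number is in parentheses. Dashed lines give the shares over all 14114 genes, 13.7% below and 12.2% above. The mesendoderm list reaches furthest to the left, with 7 of 12 genes. Without *Lhx1*, above 1 TPM in no promoter clone, it counts 6 of 11. That is a smaller share than the 5 of 9 developmental genes that the study names.

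In the remaining lists the counts were small, with 4 of 11 neural, 7 of 11 trophoblast and keratin, 9 of 13 glycolysis, 2 of 7 aryl hydrocarbon receptor, 5 of 10 p53 and 6 of 8 DNA methylation genes on opposite sides. Over all genes tested, 51.6% were on opposite sides, 13.7% below and 12.2% above. Neural progenitor genes counted 2 of 11 below and 2 above, with *Sox1* at a log2 fold change of -0.55 and *Pax6* at 1.14, both neural transcription factors. Trophoblast and keratin genes counted 1 of 11 below and 1 above, with *Plet1* at -0.72 and *Tfap2c* at 0.20. Glycolysis genes counted 3 of 13 below and 0 above, with *Pdk1*, an inhibitory kinase of pyruvate oxidation, at -0.31 and *Slc2a1*, a glucose transporter, at -0.13. Targets of the aryl hydrocarbon receptor counted 2 of 7 below and 1 above, with *Cyp1a1* at -1.45 and *Nqo1* at -0.35, p53 targets 1 of 10 below and 2 above, with *Eda2r* at 0.20 and *Zmat3* at -0.19, and DNA methylation genes 0 of 8 below and 1 above, with *Tet2* at 0.37 and *Tet3* at -0.20. For all genes named in these lists the edgeR adjusted p lay at 0.172 or above, while DESeq2 called *Pax6*, *Plet1* and *Cyp1a1*. Of the 12 genes of the 2-cell-like state, 10 were in the tables and 0 were high enough to be tested, with 86 and 107 reads in all in BC wt, 42 in ΔP4, 26 and 19 in CB wt and 92 in ΔP2.1. Most belong to multicopy families, whose reads can be split.

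Of the 8 KDM6A targets that the study names, a list chosen partly on these samples and so no independent evidence of a direction, 3 lay below wt in both clones, 0 above and 4 on opposite sides. Their median log2 difference was -1.05 in ΔP4 and 0.03 in ΔP2.1. Over all genes tested the shares were 13.7% below, 12.2% above and 51.6% on opposite sides. *Hsd17b11*, a steroid dehydrogenase of lipid droplets, was at 14.2 CPM in ΔP4 against 30.5 and 30.7 in BC wt and at 30.1 CPM in ΔP2.1 against 47.2 and 45.6 in CB wt (log2 fold change -0.86, SE 0.13, adjusted p = 0.125, edgeR). *Bcar3*, an adaptor of integrin signalling, was at 19.3 CPM in ΔP4 against 30.1 and 29.9 and at 40.7 CPM in ΔP2.1 against 60.8 and 61 (log2 fold change -0.61, SE 0.07, adjusted p = 0.117, edgeR). *Foxh1*, the DNA-binding partner of SMADs in Nodal signalling, was at 36.9 CPM in ΔP4 against 73.7 and 69.6, yet at 77.3 CPM in ΔP2.1 against 88.4 and 88.0.

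The other 5 targets were low in the BC clone alone. *Dnmt3a*, a de novo DNA methyltransferase, was at 254 CPM in ΔP4 against 591 and 530 but at 463 CPM in ΔP2.1 against 362 and 360. *Vrtn*, a factor of vertebral number, was at 11.1 CPM in ΔP4 against 42.9 and 42.9 but at 63.8 CPM in ΔP2.1 against 50.8 and 50.7. *Wt1*, *Sox3* and *Sall2* had log2 differences of -1.02, -1.54 and -0.91 in ΔP4 and of 0.28, 0.03 and 0.04 in ΔP2.1. The effect in ΔP2.1 minus that in ΔP4 was 1.5 on the log2 scale for *Dnmt3a* (adjusted p = 0.000591) and 2.28 for *Vrtn* (adjusted p = 0.000124) in the same edgeR test, with the same assumption. Of 9 developmental genes that the study names, 5 lay below wt in both clones (*Tnik*, *Has2*, *Ephb6*, *Adamts6* and *Cbfb*), 0 above and 3 on opposite sides. That list too was chosen by the study on KO clones that include ΔP4 and ΔP2.1, so it is no independent evidence of a direction. The shares over all genes were 13.7% below, 12.2% above and 51.6% on opposite sides. *Has2*, the hyaluronan synthase needed for heart cushions, was at 4.97 CPM in ΔP4 against 8.41 and 8.44 and at 20 CPM in ΔP2.1 against 31.2 and 29.1. *Adamts6*, a metalloproteinase, had a log2 fold change of -0.71 (SE 0.15, adjusted p = 0.226, edgeR).

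How far the exonic clones followed was counted over the 107 and 79 genes. Promoter and exonic clones of a cross were set against the same wt samples, so part of the likeness comes from these shared controls and the counts are a description. Of the 107 genes lower in both promoter clones, 79 lay below both wt samples in ΔE1 (73.8%, against 39.5% of all genes tested), 86 in ΔE3 (80.4% against 43.9%), 82 in ΔE2.5 (76.6% against 47.3%) and 65 in ΔE2.7 (60.7% against 46.6%). With a change of at least 1.5-fold the numbers were 56, 74, 63 and 44, against 5.89%, 12.2%, 12.9% and 10.2% of all genes. Higher by as much were 8, 4, 13 and 17 of the 107, against 6.55%, 8.95%, 6.64% and 7.69% of all genes. The median log2 difference over the 107 genes was -0.58 in ΔP4 and -0.67 in ΔP2.1, against -0.33 in ΔE1, -0.56 in ΔE3, -0.52 in ΔE2.5 and -0.23 in ΔE2.7, so ΔE2.7 followed least. In all 4 exonic clones 40 of the 107 lay below wt (37.4% against 8.59% of all genes), and 11 did so by at least 1.5-fold, *Kdm6a*, *Plekha2*, *Hsd17b11*, *Col1a2*, *Treml2*, *Acnat1*, *Lrrc4*, *Ucma*, *Cd200*, *Ephx3* and *Adm*. Over the 68 genes above 1 TPM in both arms, 54, 57, 54 and 45 lay below wt in ΔE1, ΔE3, ΔE2.5 and ΔE2.7, and 32 in all 4. By at least 1.5-fold, 35, 49, 41 and 32 of the 68 did so, and 9 in all 4. Those 9 leave out *Kdm6a*, the edited gene, and *Ucma*, both above 1 TPM in no promoter clone. *Plekha2* lies on chromosome 8, the chromosome whose median was low in ΔE1 and ΔE3.

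The genes higher in both promoter clones were counted in the same way, and the difference from the lower genes was not tested. Of the 79, 53 lay above both wt samples in ΔE1 (67.1% against 42.1% of all genes), 56 in ΔE3 (70.9% against 42.2%), 44 in ΔE2.5 (55.7% against 44.3%) and 51 in ΔE2.7 (64.6% against 45.7%). With a change of at least 1.5-fold the numbers were 29, 30, 28 and 40, against 6.55%, 8.95%, 6.64% and 7.69% of all genes. As many as 4, 11, 20 and 11 of the 79 were lower by at least 1.5-fold in these clones, against 5.89%, 12.2%, 12.9% and 10.2% of all genes. All 4 exonic clones lay above wt for 20 of the 79 (25.3% against 8.37%), and by at least 1.5-fold for 4, of which *Hoxa7* was above 1 TPM in no wt sample. *Fam183b* and *Adgrd1* were among the other 3. Over the 52 genes above 1 TPM in both arms, 38, 35, 30 and 39 lay above wt in ΔE1, ΔE3, ΔE2.5 and ΔE2.7, and 17 in all 4. By at least 1.5-fold, 20, 17, 20 and 31 of the 52 did so, and 3 in all 4.

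By gene, the exonic clones split. *Bcar3* was at 12.9 CPM in ΔE1 and in ΔE3, 35.4 in ΔE2.5 and 31 in ΔE2.7, below wt in all 4, and it fell by 1.04 on the log2 scale in exonic KO against wt (adjusted p = 0.0137, edgeR). *Hsd17b11* (10.8, 10.9, 26.4 and 28.8 CPM in the same order) fell by 1.12 (adjusted p = 0.0368, edgeR), and *Plekha2* (10.0, 3.62, 25.8 and 31.5 CPM) fell by 1.96 (adjusted p = 0.0417, edgeR). The exonic calls of *Bcar3*, *Hsd17b11* and *Plekha2* were all lost on leaving out any wt sample. *Fgf5* was at 10.4 CPM in ΔE1, 2.88 in ΔE3 and 53.2 in ΔE2.5 but at 90.2 in ΔE2.7, above both wt samples of CB. *T* likewise was at 27 CPM in ΔE2.5 but at 153 CPM in ΔE2.7. *Foxo4* and *Mb21d2*, low in both promoter clones, had exonic log2 fold changes of -0.24 and -0.07 (adjusted p = 0.240 and 0.718, edgeR). *Col11a1*, high in both promoter clones, was at 5.67 and 7.05 CPM in ΔE2.5 and ΔE2.7 against 30.2 and 29.5 in CB wt. The sum of the fibroblast markers was 394 and 639 CPM in ΔE2.5 and ΔE2.7 against 1160 and 1129 in CB wt. In ΔE1 and ΔE3 it was 135 and 32.9 CPM, against 111 and 107 in BC wt. The part of such cells in the exonic values was not tested.

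**Figure D5:**
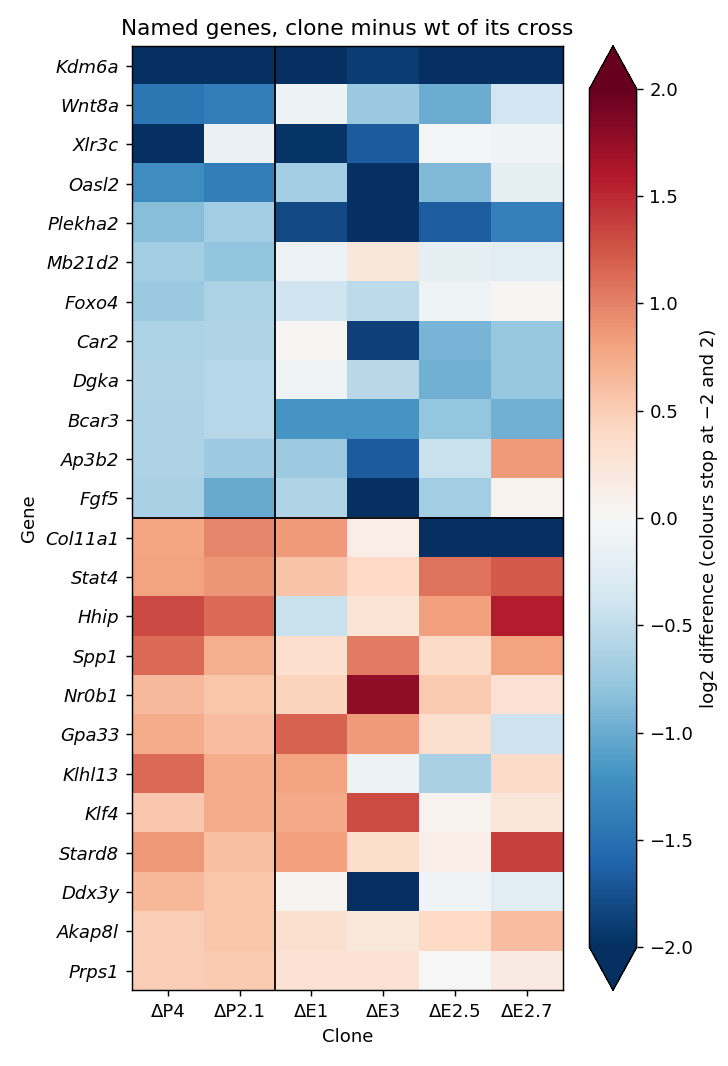
Log2 difference of each clone from the mean of the wt samples of its cross, on log2(CPM + 0.5), for the 12 genes named as lower (above the line) and the 12 named as higher (below it), with the promoter clones left and the exonic clones right of the vertical line. The 2 promoter columns have one sign per gene by the rule that chose the genes, whereas *Fgf5*, *Ap3b2*, *Col11a1*, *Klhl13* and *Ddx3y* are among those with both signs in the exonic clones.

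The direct test of promoter against exonic KO over the 10 male samples called 1 of 14301 genes lower (0.00699%), *Kdm6a*, and 0 higher (0.0%). With ΔE1 and ΔE3 averaged, which trace back to the same editing event, it called 0. An unadjusted p under 0.05 was found for 1157 genes (8.09%), and DESeq2 called 25 lower and 43 higher. In the exonic comparison with wt, edgeR called 44 of 14172 genes lower (0.31%) and 16 higher (0.113%), and 0 on leaving out any wt sample. *Pdha1*, a subunit of pyruvate dehydrogenase deleted in ΔE1 and ΔE3, was at 0.236 and 0.790 CPM there, but at 392 CPM in ΔP4 against 366 and 395 in BC wt.

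Clones of different crosses that share no control gave a further view. Of the genes at least 1.5-fold lower in ΔP4, 25.5% were lower in ΔE2.5 and 23.0% in ΔE2.7, against 12.4% in ΔP2.1, while 18.0% were higher in ΔE2.5 and 15.4% in ΔE2.7. Of the genes higher in ΔP4, 8.11% were higher and 30.1% lower in ΔE2.5, and 15.8% were higher and 17.2% lower in ΔE2.7, where over all genes 6.64% were higher in ΔE2.5 and 7.69% in ΔE2.7. Of the genes lower in ΔP2.1, 14.3% were lower in ΔE1 and 27.4% in ΔE3, against 9.35% in ΔP4, while 16.0% were higher in ΔE1, 16.1% in ΔE3 and 32.0% in ΔP4. Of the genes higher in ΔP2.1, 16.8% were higher and 11.8% lower in ΔE1, 18.6% were higher and 21.2% lower in ΔE3, and 11.7% were higher and 23.9% lower in ΔP4, where over all genes 6.55%, 8.95% and 9.17% were higher. Over all genes the shares lower were 12.9% in ΔE2.5, 10.2% in ΔE2.7, 8.11% in ΔP2.1, 5.89% in ΔE1, 12.2% in ΔE3 and 6.13% in ΔP4. Each promoter clone thus shared fewer of its lower genes with the promoter clone of the other cross than with either exonic clone of that cross, though the exonic clones also had more genes lower in 3 of the 4 cases. Over all genes above 1 CPM, Pearson's r was -0.12 between ΔP4 and ΔE2.5 (Spearman's rho -0.23), -0.02 between ΔP4 and ΔE2.7 (-0.10), 0.04 between ΔP2.1 and ΔE1 (0.02) and 0.07 between ΔP2.1 and ΔE3 (0.03), given without a p.

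The difference between the 2 promoter clones, in which cross and clone cannot be told apart, was itself tested. The edgeR interaction test called 2148 genes with a lower effect in ΔP2.1 (15.2%) and 1418 with a higher one (10.0%), under the assumption that each lone clone varies like the wt samples. With the spread taken over all 10 male samples, 268 and 205 were called. The 5 genes with the largest difference were nearly silent in 1 group or more, so their fitted difference depends on the prior count and is no bound. *Rpl29* was at 46.9 CPM in ΔP2.1 against 0.0765 and 0.0386 in CB wt, and at 3.10 CPM in ΔP4 against 8.31 and 2.92 in BC wt. *Oaz1-ps*, a pseudogene, was at 2.56 CPM in ΔP2.1 with both CB wt samples at 0, *Wdr64* at 3.21 CPM in ΔP2.1 likewise, and *Amd1* at 4.21 CPM in ΔP4 against 0.0127 and 0.0121. *Rpl29*, *Oaz1-ps* and *Amd1* have near-identical copies between which reads can be split, so their values are uncertain. *Xlr3a* was at 5.86 and 7.08 CPM in BC wt and 0.0820 in ΔP4, and at 0.0818 CPM or less in all CB samples of the comparison. Of the Xlr cluster, *Xlr5a* went from 0.8 and 1.15 CPM in BC wt to 0 in ΔP4.

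Some imprinted genes differed widely between the clones. *Meg3* and *Rian*, maternally expressed non-coding RNAs of one domain on chromosome 12 that were chosen after their values were seen, were at 28.6 and 24.0 and at 21.5 and 21.3 CPM in BC wt, and at 0.375 and 0.281 CPM in ΔP4. In ΔP2.1 they were at 344 and 248 CPM, against 236 and 240 and 224 and 221 in CB wt. *Grb10*, a growth factor receptor adaptor chosen in the same way, was at 528 CPM in ΔP4 against 359 and 334, but at 52.3 CPM in ΔP2.1 against 385 and 387. As lists, the maternally expressed genes counted 1 of 10 below wt in both clones, 2 above and 6 on opposite sides. The paternally expressed ones counted 3 of 13 below, 2 above and 7 on opposite sides. Shares over all genes were 13.7% below, 12.2% above and 51.6% on opposite sides. The members named by rule were *Phlda2* and *Cdkn1c*, growth restrictors at -0.37 and -0.41 on the log2 scale, and *Peg10* and *Mest* at -0.40 and 0.21, and edgeR called 0 of them (adjusted p from 0.350 to 0.555).

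Reads with SNPs allowed each parental allele to be followed. On the maternal allele edgeR called 1 of 12691 genes lower (0.00788%), *Kdm6a*, and 0 higher (0.0%), with 1066 (8.4%) at an unadjusted p under 0.05 and 34 called by DESeq2. On the paternal allele of autosomal genes 1 of 12125 was called lower (0.00825%) and 0 higher (0.0%), with 1003 (8.27%) at an unadjusted p under 0.05 and 80 called by DESeq2. The paternal gene was *Stmn1*, a microtubule regulator, with 207 and 230 paternal SNP reads in CB wt and 1 in ΔP2.1. In BC it had 4, 2 and 0 such reads, so the call rests on ΔP2.1, and it was lost on leaving out any wt sample. Its total level did not follow, at 79.3 CPM in ΔP2.1 against 58.7 and 59.2 in CB wt.

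Of the 54 named genes tested on both alleles, 48 had log2 fold changes of the same sign on both, against 64.2% of the 11854 genes tested on both. The named genes were mostly chosen for their change over both alleles, so nothing is read from that count. *Hsd17b11* had 406 and 500 maternal SNP reads in BC wt and 225 in ΔP4, and 385 and 378 in CB wt and 224 in ΔP2.1. Its paternal reads were 196 and 207 in BC wt and 103 in ΔP4, and 252 and 224 in CB wt and 142 in ΔP2.1. The log2 fold changes were -0.87 (adjusted p = 0.195) on the maternal and -0.82 (adjusted p = 0.411) on the paternal allele by edgeR. *Wnt8a* gave -1.45 and -1.32 and *Lama1* 1.22 and 0.94 in the same order. *Klf4* in ΔP2.1 was an exception, with 747 maternal reads against 325 and 372 in CB wt but 203 paternal reads against 371 and 370, whereas in ΔP4 both alleles were above wt, at 1102 maternal reads against 670 and 641 and 1115 paternal reads against 832 and 798. A difference between alleles was not tested.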

How the data were processed

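RNA-seq reads (75 bp, single-end) of 12 mouse ES cell samples had been mapped by the authors with TopHat for diploid expression and with Bowtie2 2.2.5 (version from the submitters' processing notes) to the BL6 genome and a *cast* genome made from it by SNP substitution for allelic expression. The estimated counts per gene deposited by the authors, for reads mapped to either genome and for reads with SNPs of each parent, were rounded to whole numbers. The counting tool and its annotation are not given in the sources used here. No column belonged to other samples.

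Counts were tested with the edgeR 4.0.16 quasi-likelihood test (limma 3.58.1, R 4.3.3) on TMM-scaled libraries with cross as covariate and Benjamini-Hochberg adjustment over all genes tested, where the study used DESeq2. A gene was tested where any sample of the fit exceeded 1 TPM. Lengths came from GENCODE M21, matched by symbol for 23310 of 24346 genes, and the median of 2283.5 bp was used for the other 1036. Calls had to pass 0.05 for the adjusted p and 1.5-fold for the size of the change. Per clone, a gene was lower or higher when outside both wt samples of its cross and, for the counts over all genes, at least 1.5-fold from their mean. Log2 differences per clone used log2(CPM + 0.5) and understate changes of low genes. CPM are not per length, so levels were not compared between genes. Allelic fits took genes with at least 10 SNP reads in at least 2 samples. Intervals cover counting error alone. Fits were tested on simulated data, and no result is drawn from that here. Python 3.11.15 with pandas 2.3.3, numpy 2.4.6 and matplotlib 3.10.9 made the remaining tables and plots.

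Genes were named by rule. These were *Kdm6a* and *Uty*, up to 12 genes per direction on the same side of wt in both clones (called genes first, then the smallest p), from each of 30 lists the called genes or else the 2 with the smallest p, and the 5 called genes with the largest difference between crosses. Other genes given with values (*Foxd3*, *Nanog*, *Pou5f1*, *Foxh1*, *Dnmt3a*, *Vrtn*, *Wt1*, *Sox3*, *Sall2*, *Tagln*, *Col1a1*, *Col3a1*, *Pdha1*, *Meg3*, *Rian* and *Grb10*) were chosen after their values were seen. Some genes that the rule or a count would name are not reported here. The members and the lists were chosen with earlier results of these data known.

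The alternatives were DESeq2 1.42.0, its size factors, median centring, other filters and folds, counts from the BL6 genome alone, all 10 male samples in 1 fit, ΔE1 and ΔE3 averaged, and each sample left out.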

Additional observations from a re-analysis of the deposited data

Results flagged for a closer look

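Of the 77 named genes, 17 had a promoter effect that differed between ΔP2.1 and ΔP4 in the edgeR interaction test, which assumes that each lone clone varies like the wt samples and cannot tell cross from clone. Values are the effect in CB minus that in BC, on the log2 scale. The naive factors went apart, with *Zfp42* at 0.59 and *Esrrb* at -0.66. *Esrrb* stood at 752 CPM in ΔP4 against 491 and 448 but at 289 CPM in ΔP2.1 against 286 and 283. The streak and Nodal genes *T* and *Cer1* were at -1.02 and -2.08, both further below wt in CB. *Uty* was at -1.34 and *Ddit3*, an ATF4 target, at -1.26, both higher in ΔP4. *Lama1* was at -0.59, *Pax6* at 1.63, *Cdkn1c* at 0.84 and *Rpl10l* at 0.62. The fibroblast markers *Col1a2* and *S100a4* were at 0.78 and 1.5, further below wt in BC. The differences of *Wdr64* (15.12), *Oaz1-ps* (10.83), *Rpl29* (10.47), *Xlr3a* (9.14) and *Amd1* (-8.12) rest on groups at or near 0 reads, depend on the prior count and are no bounds.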

How the results depend on the processing

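No paired analysis was possible because each cross has 1 promoter clone, and its label carries no replicate number to pair it with a wt sample. DESeq2 called 105 lower and 63 higher genes in promoter KO against wt, 408 in exonic KO against wt (60 with edgeR), 68 in promoter against exonic KO, 34 on the maternal and 80 on the paternal allele. With all 10 male samples in 1 fit, 16 genes were called in exonic KO and 473 for the difference between crosses (3566 in the fit of 6 samples). With ΔE1 and ΔE3 averaged, 168 were called in exonic KO and 0 in promoter against exonic KO. Leaving out each sample in turn gave 1 to 895 lower and 0 to 1143 higher genes in promoter KO, 0 to 484 in exonic KO, 0 to 17 in promoter against exonic KO, 1 to 925 on the maternal and 0 to 1452 on the paternal allele. The highest values came without ΔP4, except 1143 without ΔP2.1 and 484 without ΔE1. The difference between crosses cannot be estimated without a promoter clone.

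Genes lower and higher in both clones numbered 32 and 10 at 2-fold, 327 and 298 at a lower fold threshold, 308 and 423 with no filter, 49 and 24 above 5 TPM, and 1934 and 1718 by range alone, an alternative chosen after seeing the data. The signs of all 77 named genes held with BL6 counts, both scalings, all 10 male samples and each wt sample left out. The log2 fold change of *Xlr3a* turned to 0.51 with DESeq2. Without ΔP4 and without ΔP2.1, in that order, it was 0.23 and -0.98 for *Eif2s3x*, -0.12 and 1.22 for *Uty*, 2.85 and -6.27 for *Xlr3a*, 10.34 and -0.42 for *Oaz1-ps*, 9.61 and -0.85 for *Rpl29*, 0.24 and -0.14 for *Smarcb1* and 10.67 and -4.45 for *Wdr64*. These 8 reversals were among 847 combinations of gene and setting. One clone per cross and the lower depth of CB limit what low genes can show.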

Other observations

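Gene groups outside the lists were looked up after the values of the 107 and 79 genes had been seen, so they are descriptions without a test. Interferon-related genes were among those lower in both promoter clones. *Irf1*, an interferon regulatory factor, stood at 34.9 CPM in ΔP4 against 76.7 and 77.8 in BC wt and at 83.2 CPM in ΔP2.1 against 133 and 134 in CB wt (log2 fold change -0.91, SE 0.12, adjusted p = 0.120, edgeR), but at 163 CPM in ΔE2.7. *Zbp1*, a sensor of nucleic acids in the Z form, was at 0.328 CPM in ΔP4 against 1.66 and 1.77 and at 1.10 CPM in ΔP2.1 against 1.82 and 1.89. *Mx2*, an antiviral GTPase, was at 0.445 CPM in ΔP4 against 0.826 and 0.922 and at 0.491 CPM in ΔP2.1 against 1.95 and 2.02. *Tmem173* (STING) and *Pyhin1* were also below wt in both.

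A pair of secreted inhibitors, picked in the same way, was below wt in both clones and was called by DESeq2 but not by edgeR. *Chrd* (chordin), which binds BMPs, stood at 3.60 CPM in ΔP4 against 7.24 and 7.98 and at 3.95 CPM in ΔP2.1 against 12.2 and 12.2 (log2 fold change -1.34, SE 0.17, adjusted p = 0.120, edgeR), with ΔE1, ΔE3, ΔE2.5 and ΔE2.7 at 5.87, 6.99, 8.10 and 6.93 CPM. *Fst* (follistatin), which binds activin, was at 2.2 CPM in ΔP4 against 3.49 and 3.53 and at 19.5 CPM in ΔP2.1 against 32.6 and 34.4. In the exonic clones it was at 3.15 CPM in ΔE1, 2.88 in ΔE3 and 19.3 in ΔE2.5, but at 55.8 in ΔE2.7, above both CB wt samples.

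Some Hox genes, which pattern the body axis, lay above wt at low levels. Of 39 in the files 12 were tested, and 4 of these were above 1 TPM in no wt sample and so passed only through a promoter clone, so no count by direction is given. *Hoxb9* was at 0.855 CPM in ΔP4 against 0.559 and 0.558 and at 3.66 CPM in ΔP2.1 against 1.84 and 1.39. The exonic clones did not all follow, with *Hoxb9* at a log2 difference of -0.54 in ΔE2.5 and -0.91 in ΔE2.7 and *Hoxb2* at -0.56 in ΔE1 and -0.65 in ΔE3. No tested Hox gene had a mean above 3.28 CPM over the 10 male samples. Of the genes named in these 3 groups edgeR called 0, and DESeq2 called *Irf1*, *Zbp1*, *Mx2*, *Chrd* and *Fst*.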
